A study of Mus musculus with 9 samples.

Results

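A group of 10 genes that move iron into cells, store it, release it or sense it was followed in bulk RNA from mouse bone: Tfrc, Steap3, Slc11a2 and Slc25a37 (uptake), Fth1 and Ftl1 (storage), Slc40a1 (export), Hmox1 (release of iron from heme), and Aco1 and Ireb2 (sensing). They were taken by gene name from the deposited table, where each of the 10 names matched 1 of 56980 genes, and all 10 had enough counts to be tested. The libraries came from wild-type C57BL/6 mice with no agent given, 4 labelled young at 3 months (young 1 to 4) and 5 labelled aged at 20 months (aged 1 to 5). Each label names a biological replicate, the tissue is given as bone marrow, and the RNA protocol names crushed trabecular bone, so bone and marrow cells could both contribute.

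Transferrin carries iron in blood, and cells take it in by binding transferrin to the transferrin receptor, reducing the iron inside the endosome and pumping it out into the cytosol. Red cell precursors in marrow take up most of this iron and send it to mitochondria for heme, while marrow macrophages break down old red cells, free the iron with heme oxygenase and return it to blood through ferroportin. Ferritin, a shell of heavy and light subunits, holds what is not used. Iron regulatory proteins read the cell's iron and bind hairpins called iron responsive elements: in a 5′ UTR the bound protein blocks translation, and in a 3′ UTR it shields the transcript from decay.

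These hairpins are shown first because they are the elements that the products of Aco1 and Ireb2 bind, and 4 of the 10 genes carry them in the annotation searched. The search, on the transcript strand of GENCODE M21 UTRs, looked for the loop CAGTGN with 5 bases on either side able to pair (wobble pairs allowed) and an unpaired cytosine ahead of them. Of 21875 protein-coding genes, 0.709% had a match in either UTR. Capitals mark the loop, and 27 bases are given for each, 5′ to 3′ and written with T.
Fth1 5′ UTR: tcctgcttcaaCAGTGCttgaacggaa
Ftl1 5′ UTR: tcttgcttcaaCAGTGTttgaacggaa
Slc40a1 5′ UTR: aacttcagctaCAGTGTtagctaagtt
Tfrc 3′ UTR, transcript base 3321: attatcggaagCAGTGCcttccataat
Tfrc 3′ UTR, transcript base 3700: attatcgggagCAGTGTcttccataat
Tfrc 3′ UTR, transcript base 3765: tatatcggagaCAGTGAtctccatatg
Tfrc 3′ UTR, transcript base 3812: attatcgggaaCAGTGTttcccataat
The storage and export transcripts each held 1 match before the coding part, and Tfrc held 4 after it, with the transcript base being that of the unpaired cytosine ahead of the stem. No match was found for the other 6 genes, which says only that this pattern is not in their annotated UTRs. RNA counts read transcript levels, so the translational side of this control is not measured here.

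Library totals ran from 19804883 to 23548594 estimated counts, and counts of the 10 genes from 253 to 65032 per library. Levels below are CPM, counts scaled to library size with TMM factors, which keep a few very abundant transcripts from setting the scale, and differences are log2 fold changes of aged over young. Young 4, aged 3 and aged 4 stood apart from the other 6 libraries, with 5.63% to 6.54% of counts in ribosomal protein genes against 2.85% to 3.07%, and are shown apart throughout. Xist had 7909 to 21724 counts in aged 1 to 4 and 1 to 9 in the rest, while Ddx3y and Eif2s3y, both Y-linked, had 888 to 1912 counts in young 1 to 4 and aged 5 and 0 in aged 1 to 4, which goes against the stated female sex in 5 libraries. Age and sex chromosome transcripts therefore cannot be told apart except through aged 5.

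The uptake genes and ferroportin were lower in aged bone, and the ferritin and sensor genes had no common direction. Tfrc, Steap3, Slc11a2, Slc25a37 and Slc40a1 were lower in each of the 5 aged libraries than in any of the 4 young ones (5 of 10, against 2.76% of the 16576 tested genes), and 0 of 10 were higher in each (against 1.67%). These same 5 had an unadjusted p under 0.05 in the group-only edgeR fit (5 of 10 lower, against 4.64% of tested genes), and 8 of 10 had a log2 fold change below 0 (46.5% of tested genes). The median log2 fold change was −0.66 over the 10 genes and 0.03 over all tested genes. In that fit 0 of the 10 genes, and 0% of all tested genes, passed an adjusted p of 0.05. With the library set fitted as a second term beside age (the set term), edgeR called Tfrc and Steap3 lower (2 of 10, against 1.31% of tested genes called lower) and 0 of 10 higher (0.615% of tested genes). DESeq2 without that term called Slc25a37 and Steap3 (2 of 10 lower, against 1.04%). With a further term for the Y-linked transcripts edgeR called 0 of 10, with log2 fold changes of −0.65 for Tfrc, −0.72 for Steap3, −0.67 for Slc11a2, −0.73 for Slc25a37 and −0.29 for Slc40a1. Those same genes were at −0.68, −0.61, −0.67, −0.77 and −0.41 in aged 5 alone against young 1 to 3, which match it in set and in Y-linked transcripts (1 aged library, no test).

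**Figure D1:**
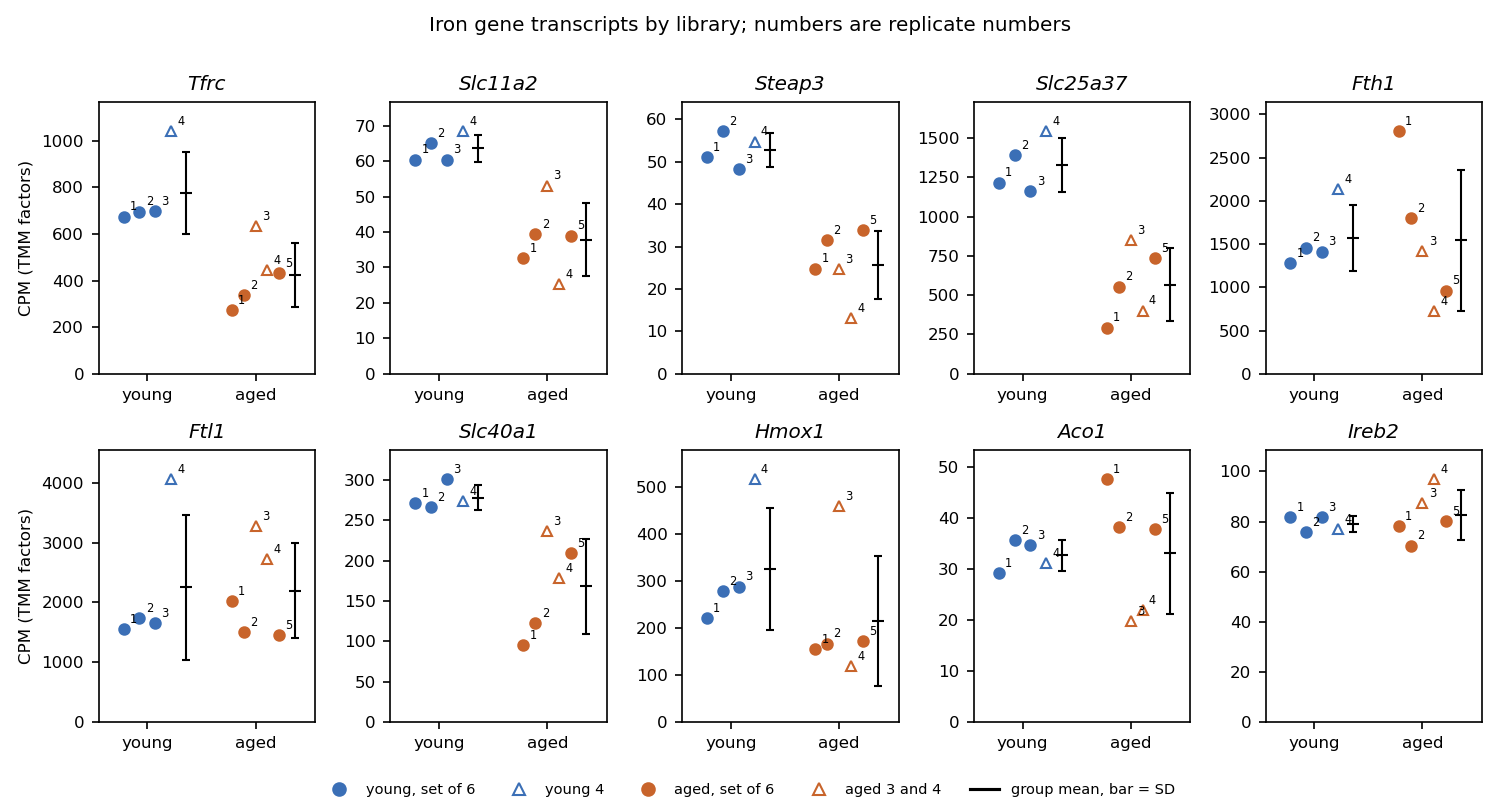
CPM of each gene in each library (vertical axes start at 0), young on the left and aged on the right of each panel. Open triangles mark young 4, aged 3 and aged 4, small numbers are replicate numbers, and bars are mean ± SD. For Tfrc, Slc11a2, Steap3, Slc25a37 and Slc40a1 every aged point lies below every young point.

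Tfrc (ENSMUSG00000022797) encodes the transferrin receptor, the main door for iron into red cell precursors. Its level was 674, 696, 699 and 1041 CPM in young 1 to 4, and 274, 338, 633, 445 and 432 CPM in aged 1 to 5. Young 4 was the highest young and aged 3 the highest aged library, both of the set of 3, and the age groups did not overlap. Mean levels were 777 ± 176 (SD, n = 4) and 424 ± 136 (SD, n = 5), 45.4% lower in aged libraries. The log2 fold change was −0.87 (SE 0.28, edgeR adjusted p = 0.370), against −0.97 (SE 0.16, edgeR adjusted p = 0.0405) once the set was fitted. It was −0.98 within the 6 libraries (edgeR adjusted p = 0.0694) and −0.97 within the 3, where there is 1 young library and no test.

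Steap3 (ENSMUSG00000026389) encodes the endosomal reductase that turns transferrin-borne iron into the form the transporter accepts. It stood at 51.0, 57.2, 48.2 and 54.7 CPM in young 1 to 4. In aged 1 to 5 the values were 24.8, 31.5, 24.7, 13.1 and 33.9 CPM. The young libraries lay close together whichever set they belonged to, and aged 4 was the lowest of all. Means were 52.8 ± 3.96 (SD, n = 4) and 25.6 ± 8.08 (SD, n = 5), 51.5% lower in aged bone. The edgeR fit gave −1.04 on the log2 scale (SE 0.25, adjusted p = 0.268), against −1.03 (SE 0.21, adjusted p = 0.0466) once the set was fitted. The authors' deposited DESeq2 comparison of the same libraries marks it significant, at −1.03 with an adjusted p of 0.0426. That comparison marks 256 genes, 2 of the 10 among them. It does not mark Tfrc (DESeq2 adjusted p = 0.0967), Slc11a2 (0.108) or Slc40a1 (0.262).

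Leaving out 1 library ended the set-term calls of both genes in 7 of 9 refits. Only without aged 3 or aged 5 did they stay under 0.05 (edgeR adjusted p = 0.0179 and 0.0199 for Tfrc, 0.0244 and 0.0361 for Steap3). Across the 9 refits the log2 fold change of Tfrc stayed between −1.08 and −0.88, and that of Steap3 between −1.10 and −0.79. The lost calls went up to an adjusted p of 0.176 for Tfrc and 0.206 for Steap3.

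Slc11a2 (ENSMUSG00000023030) encodes DMT1, the transporter that carries the reduced iron out of the endosome. Young 1 to 4 had 60.4, 65.1, 60.4 and 68.4 CPM. Aged 1 to 5 had 32.6, 39.4, 53.1, 25.3 and 39.0 CPM. Aged 3 came nearest to the young range and aged 4 lay farthest below it. With means of 63.6 ± 3.92 (SD, n = 4) and 37.9 ± 10.2 (SD, n = 5), the log2 fold change was −0.75 (SE 0.21, edgeR adjusted p = 0.320), against −0.76 (adjusted p = 0.0695) once the set was fitted.

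Slc25a37 (ENSMUSG00000034248) encodes mitoferrin-1, which brings iron into the mitochondria of red cell precursors. It showed the lowest ratio of aged to young among the 10 genes. Levels were 1216, 1393, 1164 and 1543 CPM in young 1 to 4, and 294, 554, 852, 402 and 737 CPM in aged 1 to 5. The highest library held 5.25 times the lowest. Means were 1329 ± 173 (SD, n = 4) and 568 ± 230.2 (SD, n = 5), 57.3% lower in aged libraries, with a log2 fold change of −1.23 (SE 0.32, edgeR adjusted p = 0.299), or −1.27 (SE 0.28, adjusted p = 0.0584) once the set was fitted. DESeq2 gave an adjusted p of 0.0140, and the authors' deposited table −1.22 with an adjusted p of 0.0225. Its deposited counts were not whole numbers (to within 0.005) in any of the 9 libraries, and whether reads were shared with other features was not tested.

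Ferroportin, the only known exporter of iron from cells, is the product of Slc40a1 (ENSMUSG00000025993). Its transcript stood at 272, 266, 301 and 274 CPM in young 1 to 4. Aged 1 to 5 held 95.4, 122, 236, 178 and 209 CPM. The young libraries were tight (278 ± 15.4, SD, n = 4) and the aged ones wide (168 ± 58.8, SD, n = 5), with aged 1 and aged 2 lowest. The log2 fold change was −0.72 (SE 0.27, edgeR adjusted p = 0.455), against −0.80 (adjusted p = 0.103) once the set was fitted. With library totals alone as the scaling, its groups overlapped: the lowest young library had 193 CPM and the highest aged library 236.

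Hmox1 (ENSMUSG00000005413) encodes heme oxygenase 1, which opens the heme ring and frees its iron. Its levels were 220.5, 278, 288 and 516 CPM in young 1 to 4, and 156, 167, 459, 118 and 172 CPM in aged 1 to 5. Aged 3 stood far above the other 4 aged libraries and inside the young range, so the groups overlapped. Within each set, though, every aged library was below every young one: 156 to 172 against 220.5 to 288 in the 6 libraries, and 459 and 118 against 516 in the 3. That order within both sets held for 6 of the 10 genes, Hmox1 and the 5 above, against 9.62% of tested genes, and 0 of 10 had the opposite order in both (5.68%). With library totals alone as the scaling it held for 4 of 10 (5.44% of tested genes), not for Hmox1 or Slc40a1. The log2 fold change of Hmox1 was −0.60 (SE 0.42, edgeR adjusted p = 0.859), against −0.72 (adjusted p = 0.252) once the set was fitted. Without aged 3 it was −1.09 in the group-only fit (edgeR adjusted p = 0.160), or −1.02 once the set was fitted (adjusted p = 0.0384). Without young 4 it was −0.29 in the group-only fit (edgeR adjusted p = 0.792).

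The ferritin transcripts had log2 fold changes near 0 over all 9 libraries, with values that depended on the libraries compared. Fth1 (ENSMUSG00000024661), the heavy subunit that oxidises iron for storage, had 1282, 1460, 1414 and 2133 CPM in young 1 to 4. In aged 1 to 5 it had 2805, 1799, 1421, 725 and 963 CPM. Aged 1 was the highest and aged 4 the lowest of all 9 libraries, so the aged group spread to both sides of the young one. Means were 1572 ± 381 (SD, n = 4) and 1543 ± 818 (SD, n = 5), and the log2 fold change was −0.03 (SE 0.40, edgeR adjusted p = 0.9998). It was 0.43 within the 6 libraries (edgeR adjusted p = 0.512) and −1.07 within the 3 (1 young library, no test), and −0.52 between young 1 to 3 and aged 5 alone. With the set and Y-linked terms it was −0.81, below each of the uptake genes (edgeR, 0 of 10 genes called).

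Ftl1 (ENSMUSG00000050708), the light subunit that helps the iron core form, was highest in the set of 3. It had 1552, 1732, 1656 and 4055 CPM in young 1 to 4, and 2016, 1499, 3281, 2724 and 1452 CPM in aged 1 to 5. Young 4, aged 3 and aged 4 were the 3 highest libraries, and the age groups overlapped. The log2 fold change was −0.04 (SE 0.39, edgeR adjusted p = 0.9998), or −0.13 (SE 0.16, adjusted p = 0.745) once the set was fitted. Ferritin genes have processed copies, of which Ftl1-ps1 took 21 to 158 counts per library, and Ftl1 counts were not whole in any of the 9 libraries.

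**Figure D2:**
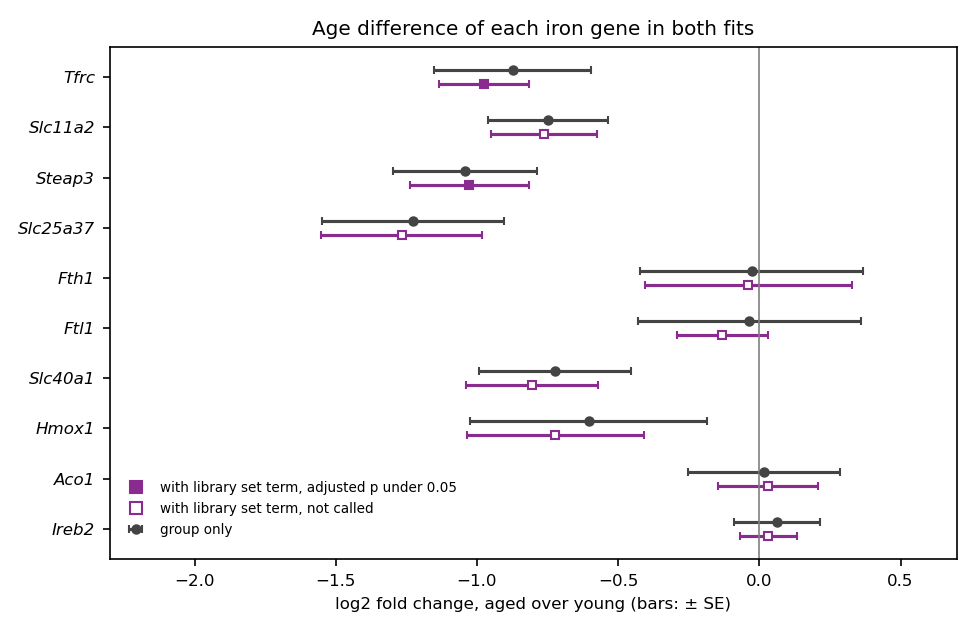
Log2 fold change of each gene (aged over young, horizontal axis, bars ± SE) in the group-only fit (circles) and with the library set term (squares, filled where the adjusted p is under 0.05). Tfrc (−0.97) and Steap3 (−1.03) are the filled squares, and the bars of Fth1, Ftl1, Aco1 and Ireb2 cross 0 in both fits.

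Aco1 (ENSMUSG00000028405) and Ireb2 (ENSMUSG00000032293) encode iron regulatory proteins 1 and 2, which bind the elements printed above. Aco1 had 29.2, 35.7, 34.6 and 31.2 CPM in young 1 to 4, and 47.6, 38.2, 19.7, 21.97 and 37.9 CPM in aged 1 to 5. In the 6 libraries the 3 aged values were above all 3 young ones, and in the other set both aged values were below young 4. The log2 fold change was 0.02 over all 9 libraries (SE 0.27, edgeR adjusted p = 0.9998), 0.32 within the 6 libraries (adjusted p = 0.192) and −0.58 within the 3 (no test). The interaction of age with library set was −0.89 on the log2 scale, with an unadjusted p of 0.00832 and an adjusted p of 0.925 (edgeR). For that interaction 5.21% of tested genes had an unadjusted p under 0.05, and 0 of the 10 genes passed after adjustment (0.0121% of tested genes).

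Ireb2 varied least of the 10 genes, the highest library holding 1.38 times the lowest. It had 81.9, 75.7, 81.7 and 76.9 CPM in young 1 to 4, and 78.0, 70.4, 87.5, 96.8 and 80.1 CPM in aged 1 to 5. The groups overlapped and the log2 fold change was 0.06 (SE 0.15, edgeR adjusted p = 0.9998).

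Because scaling between libraries does not touch a ratio within a library, the counts of an uptake and a storage transcript were also divided. The young libraries held 0.526, 0.477, 0.495 and 0.488 Tfrc counts per Fth1 count, in both sets alike. The aged ratios were 0.0978, 0.188, 0.446, 0.613 and 0.448. Aged 1 and aged 2 lay far below the young libraries, aged 3 and aged 5 just below and aged 4 above. The mean log2 ratio was −1.01 ± 0.0608 (SD, n = 4) in young and −1.76 ± 1.09 (SD, n = 5) in aged libraries, a difference of −0.75 (two-sided exact permutation p = 0.317, adjusted over both ratios 0.635). Leaving out 1 library moved the difference from −1.01 without aged 4 (exact permutation p = 0.0286) to −0.58 without aged 2 and −0.35 without aged 1 (exact permutation p = 0.543 for both). Within the 6 libraries it was −1.30 (exact permutation p = 0.10, the smallest that 3 against 3 allows), and permuting within the sets gave p = 0.217.

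The ratio of Fth1 to Ftl1 counts, heavy to light subunit, was 0.826, 0.843, 0.854 and 0.526 in young 1 to 4. In aged 1 to 5 it was 1.39, 1.1998, 0.433, 0.266 and 0.663. Only aged 1 and aged 2 held more heavy than light chain counts. The mean log2 ratios differed by −0.17 (two-sided exact permutation p = 0.770, adjusted over both ratios 0.770), less than the SD of 0.999 among aged libraries (n = 5). The smallest p that an exact test of 4 against 5 libraries allows is 0.00794.

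**Figure D3:**
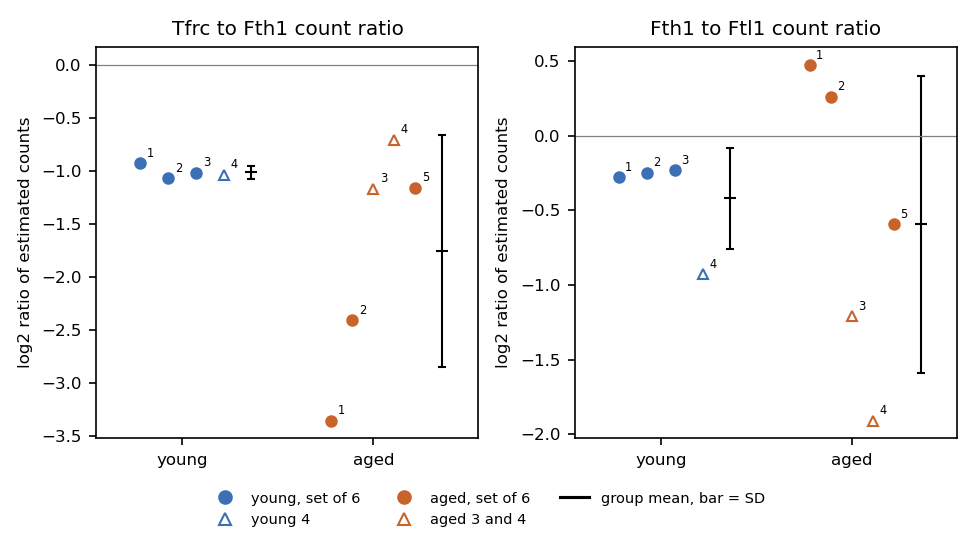
Log2 ratio of estimated counts within each library, Tfrc to Fth1 on the left and Fth1 to Ftl1 on the right. Symbols are as in the plot of CPM by library, with mean ± SD bars. The 4 young Tfrc to Fth1 ratios lie between −1.07 and −0.93, and the aged ones between −3.35 and −0.71.

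Levels of different genes can be set side by side only per length, for which the deposited TPM was used. Averaged over the 9 libraries, Ftl1 (2835 TPM) and Fth1 (2582 TPM) were highest, followed by Slc25a37 (206), Hmox1 (181), Tfrc (148), Slc40a1 (77.4), Slc11a2 (17.1), Ireb2 (14.99), Steap3 (14.7) and Aco1 (10.1). The order of the means differed between ages, but not in every library. Slc25a37 (301 TPM) was above Hmox1 (221) in young means and below it in aged ones (130 and 150). By library it was below Hmox1 in aged 1 and aged 3 only. In aged 2, aged 4 and aged 5 it was above (149.4, 73.6 and 203 TPM against 147.1, 64.5 and 160), and young 4 held 192.5 and 192.4. In aged means Ireb2 (15.4) was above Slc11a2 (13.4), Aco1 (10.8) and Steap3 (10.5), and in young means Slc11a2 (21.7) and Steap3 (19.9) were above Ireb2 (14.5). In aged 2 and aged 3, though, Slc11a2 (15.41 and 10.71) was above Ireb2 (14.86 and 9.17). Ranges over the 9 libraries left a gap below the ferritins, whose lowest value was 766 TPM (Fth1) against at most 356 for Slc25a37, and below Slc40a1, at least 41.4 against at most 28.6 for Slc11a2. The other neighbours overlapped, Fth1 running from 766 to 6834 TPM and Ftl1 from 2448 to 4245. TPM has no TMM factor, and the set of 3 was low on it for several genes. Ireb2 was at 6.98, 9.17 and 12.93 TPM in young 4, aged 3 and aged 4, and at 14.86 or more in the 6 libraries. The part of hemoglobin and ribosomal protein counts in this was not tested. On TPM, Tfrc alone of the 10 genes was lower in every aged library (1 of 10, against 0.959% of tested genes), while Tfrc, Slc11a2, Steap3, Slc25a37 and Slc40a1 were lower within both sets (5 of 10, against 3.84%).

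Markers of red cell precursors were also lower in aged libraries. All 21 erythroid markers tested had a log2 fold change below 0 (46.5% of tested genes; median −1.24), and each had counts. At an unadjusted p under 0.05, 16 were lower (4.64% of tested genes), and 0 of 21 passed the edgeR test after adjustment, with or without the set term. The summed level of the markers, mostly hemoglobin, ranged from 70672 to 318554 CPM in young and from 7488 to 201912 CPM in aged libraries. Their mean log2 CPM was 9.35 to 9.95 in young libraries, and 6.78, 8.08, 9.38, 7.72 and 8.55 in aged 1 to 5. Aged 3, the aged library nearest to young in Tfrc, Slc11a2, Slc25a37 and Slc40a1, was the one with the highest erythroid mean. Aged 1, lowest in Tfrc, Slc25a37 and Slc40a1, had the lowest. Steap3 did not go with this order: aged 3 had 24.7 CPM, below aged 2 (31.5) and aged 5 (33.9). Aged 4, not aged 1, was the lowest library in Steap3 (13.1 CPM) and Slc11a2 (25.3 CPM). The part of the erythroid markers in these differences was not tested, and in bulk RNA fewer cells of a type and less RNA per cell cannot be told apart.

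Set against the erythroid mean of the same library, the uptake genes differed between ages by less than the markers did. The log2 level of Slc25a37 minus the marker mean was 0.80 in young and 0.94 in aged libraries on average, a difference of 0.14. That of Tfrc was 0.01 and 0.57, a difference of 0.55, with aged 1 (1.32) and aged 4 (1.07) highest and aged 3 (−0.08) within the young range. For the other 8 genes the same difference ran from 0.35 (Steap3) to 1.52 (Ireb2). These are descriptions of the same libraries, with no test.

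Markers of macrophages, the cells that recycle iron, had 8 of 14 members above 0 and 6 below, with a summed level of 1149 to 1437 CPM in young and 1020.2 to 2897 CPM in aged libraries. Their mean log2 CPM was highest in aged 1 (6.48) and aged 2 (6.36), the libraries with the most Fth1 among the aged and the least Slc40a1. It was lowest in aged 4 (5.13), which had the least Fth1. Other libraries did not go with this order. Aged 3 (6.25) was above every young library, with Fth1 (1421 CPM) inside the young range. Young 4 had the most Fth1 of the young libraries (2133 CPM) and a mean of 5.74, near the lowest young one (5.73). Neutrophil markers had 8 of 12 members above 0 and a summed level of 25063 to 56426 CPM in young and 18127 to 77986 in aged libraries. Every marker of both lists had counts, and the part of these cells in the iron genes was not tested. Osteoblast and B cell progenitor markers were present, with 10 of 10 below 0 in each list (46.5% of tested genes, medians −0.75 and −0.93). Both overlapped between ages: the B cell progenitor mean log2 CPM was 5.37 in aged 3, against 4.48 to 5.16 in young libraries. The osteoblast mean was 6.27 in aged 2, against 5.98 to 7.06. All 8 plasma cell markers were above 0 (median 1.22), and the set term called 3 of 8 higher (0.615% of tested genes). The part of these cells was not tested either.

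**Figure D4:**
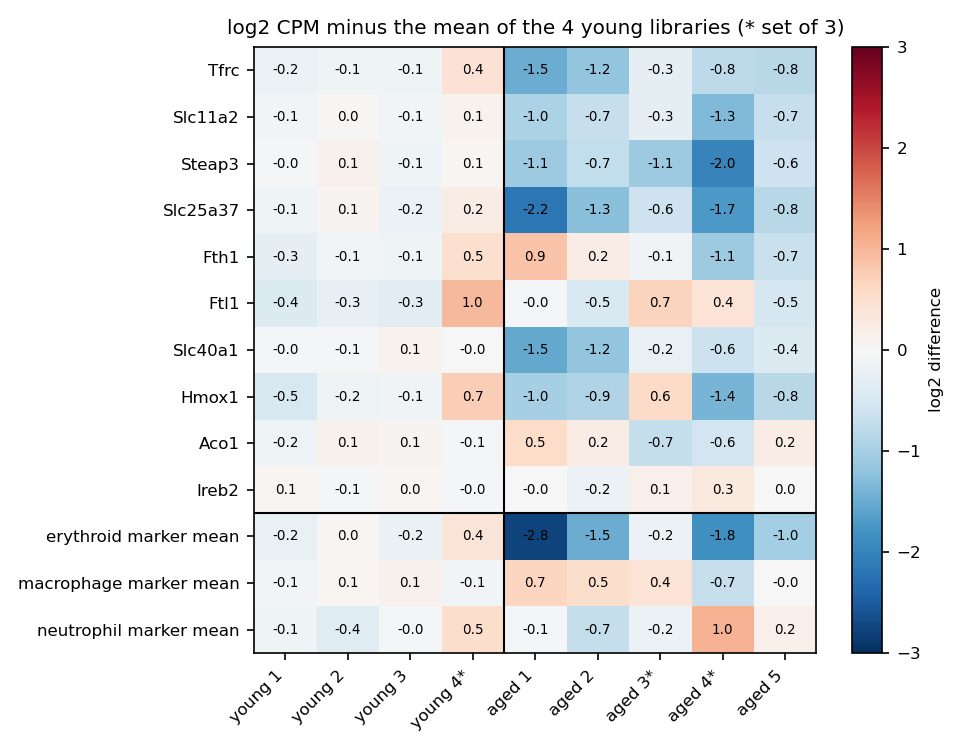
Log2 CPM of each gene, and below the line the mean of each marker list, minus the mean of the 4 young libraries (colour scale and cell numbers, log2). Columns are libraries, and an asterisk marks the set of 3. Aged 1 has the lowest Slc25a37 (−2.17) and erythroid mean (−2.78) and the highest Fth1 (0.86).

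Genes with the most similar pattern were sought by Pearson r of log2 CPM over the 9 libraries among 14830 genes averaging 1 CPM or more, which takes in both the age and the set difference. For Tfrc these were Atg4a, Dcaf12, 1700086O06Rik, Slc16a1 and Gpsm2 (r from 0.989 to 0.995). For Slc40a1 they were Gm37915, Pdzk1, Gpcpd1, Ncapg2 and Cd24a (r from 0.958 to 0.986). For Fth1 they were C6, Tnfsf12, Lbh, Pparg and Zfp583, with lower r (0.878 to 0.897). Among the 10 genes themselves, Tfrc went with Slc25a37 (r = 0.916) and Slc40a1 (r = 0.916), and Slc11a2 with Slc25a37 (r = 0.935), while Fth1 and Tfrc had r = −0.08.

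Beyond the 10 genes, 46 of 51 other iron genes in 6 lists were tested. Their median log2 fold change was −0.05, with 26 below 0 and 20 above. None passed the group-only edgeR test (0% of tested genes). At an unadjusted p under 0.05, 5 were lower (4.64% of tested genes) and 2 higher (4.15%). Of the 46, 3 were lower in every aged library (2.76% of tested genes) and 1 was higher in every one (1.67%). The set term called 5 lower (1.31% of tested genes) and 1 higher (0.615%). The set-term calls rest on the full set of libraries: that fit called 0 of all tested genes without young 1, young 2, young 3, aged 1 or aged 4, and with the Y-linked term added it called 0 lower.

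Of 12 other uptake and reduction genes, 7 were below 0 and 5 above, and 2 fell with the set term. Tfr2, a second transferrin receptor that also acts as an iron sensor, was at 30.0, 35.9, 27.6 and 29.8 CPM in young 1 to 4, and at 12.4, 16.9, 9.01, 9.504 and 19.8 CPM in aged 1 to 5. It was lower in every aged library (1 of 12, against 2.76% of tested genes). Its log2 fold change was −1.19 (SE 0.26, edgeR adjusted p = 0.255), against −1.17 (SE 0.19, adjusted p = 0.0405) once the set was fitted. Slc39a8, a zinc and iron importer of the ZIP family, was at 23.4 ± 4.32 (SD, n = 4) and 14.03 ± 4.45 CPM (SD, n = 5), a log2 fold change of −0.82 once the set was fitted (edgeR adjusted p = 0.0492).

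In the storage list of 3 tested genes, Ncoa4 was lower in every aged library (1 of 3, against 2.76% of tested genes). It encodes the receptor that delivers ferritin for breakdown. It stood at 405 ± 31.2 CPM (SD, n = 4) against 266 ± 49.8 (SD, n = 5), with a log2 fold change of −0.61 (edgeR adjusted p = 0.385, or 0.0782 once the set was fitted). Pcbp1 and Pcbp2, iron chaperones, had log2 fold changes of 0.08 and 0.04.

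Among 6 tested genes of export and systemic control, 2 were below 0 and 4 above. Hfe, which acts in hepatic iron sensing, was at 15.8 ± 1.85 (SD, n = 4) and 32.9 ± 17.7 CPM (SD, n = 5), with 62.0 CPM in aged 1 (log2 fold change 1.06, edgeR adjusted p = 0.388). Bmp6, a growth factor that induces hepcidin, was at −0.57 (adjusted p = 0.740) and Erfe, the erythroid hormone that represses hepcidin, at 1.08 (adjusted p = 0.811). Hamp, the gene of hepcidin, had 0 counts in all libraries.

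The heme recycling list had 4 of 10 tested genes below 0 and 6 above. Slc48a1, a heme transporter of the lysosome, was lower in every aged library (1 of 10, against 2.76% of tested genes). It was at 182 ± 41.4 (SD, n = 4) and 115 ± 16.3 CPM (SD, n = 5), with a log2 fold change of −0.66 (edgeR adjusted p = 0.342, or 0.0552 once the set was fitted). Blvrb, a biliverdin reductase, was at −0.93 (adjusted p = 0.703), and Hp, haptoglobin, at 0.72 (adjusted p = 0.742).

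Of 10 tested genes of iron sensing and cluster assembly, 9 were below 0. Isca1, an iron-sulfur cluster carrier (−1.17), and Glrx5 (−1.07) fell once the set was fitted (edgeR adjusted p = 0.0470 and 0.0466). Glrx5, a mitochondrial glutaredoxin, differed far more between sets than between ages: young 1 to 3 had 76.4 to 92.5 CPM and young 4 had 554. Within the 6 libraries the aged values were 26.8, 44.5 and 51.9 CPM, and in the set of 3 they were 323 and 180.3.

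Of 5 other transcripts listed for their iron responsive elements, Epas1 rose with the set term. It encodes the hypoxia factor HIF-2 alpha and stood at 50.3, 56.5, 52.4 and 40.9 CPM in young 1 to 4, and at 68.8, 96.3, 85.1, 63.0 and 74.4 CPM in aged 1 to 5. Every aged library was above every young one (1 of 5 genes, against 1.67% of tested genes). The log2 fold change was 0.63 (SE 0.18, edgeR adjusted p = 0.335), against 0.67 (SE 0.14, adjusted p = 0.0492) once the set was fitted.

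**Figure D5:**
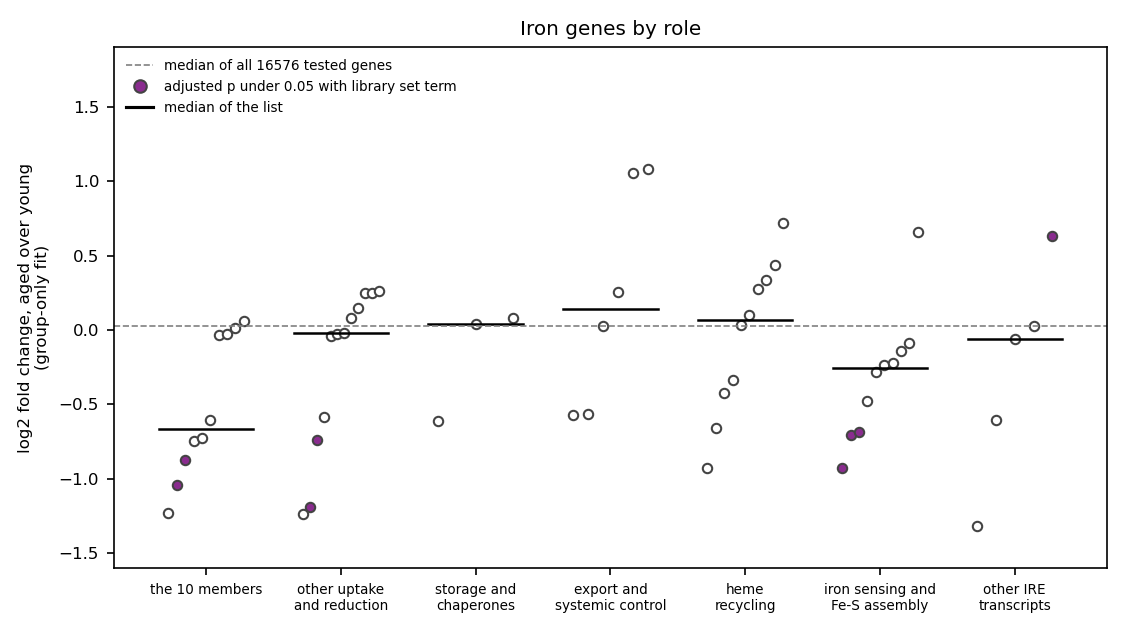
Log2 fold change (vertical axis, aged over young, group-only fit) of the 10 genes and of the 6 lists of other iron genes, 1 point per gene, filled where the set-term adjusted p is under 0.05. Black lines are list medians, from −0.66 for the 10 genes to 0.14 for export and systemic control, and the dashed line is the median of all tested genes (0.03).

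Promoter windows of 300 bases (RefSeq, GRCm38.p6) were found for 6 of the 10 genes, 11 windows in all. The motif AGATAA, known to be bound by the red cell factor Gata1 and searched on both strands, was found in 1 of the 11, a Steap3 window, and in 11.2% of all windows. TGACNNNGC, the core of the antioxidant response element, was found in none of the 11 and in 12.4% of all windows.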

How the data were processed

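Bulk RNA sequencing of 4 young and 5 aged mice was read from 1 deposited table. The submitters' processing notes name Bowtie 0.12.2 and mm8 without a role; the quantifier and annotation are not given in the sources used here. It holds deposited estimated counts (rounded before testing), TPM by the authors, and, per the file headers, a DESeq2 comparison with log2 fold changes, a fold ratio, p-values and adjusted p-values, whose settings are not given. The ratio and the authors' mean TPM were not used.

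The main test was the edgeR 4.0.16 quasi-likelihood test (R 4.3.3) on age group alone, using TMM factors, filterByExpr (minimum count 10, total 15) and Benjamini-Hochberg adjustment over 16576 genes at 0.05. Every p called edgeR is two-sided, from it or from the same test with the added terms, interaction or smaller set of libraries named beside the value. SE is the log2 fold change over the square root of F. Log2 CPM used a prior count of 2. The ratios were tested by exact permutation over libraries. Alternatives were DESeq2 1.42.0, limma-voom (limma 3.58.1), other scalings, no filter, each library left out, added terms, library subsets and a replicate block. The members and lists were chosen with earlier results of these data known. The lists' named genes are those called in either fit, otherwise the 3 with the smallest p, and the 5 most similar patterns of Tfrc, Fth1 and Slc40a1. A result that this rule would name is not reported here. Ages came from the labels, and counting error is part of the fitted dispersion. In simulated counts the fit on age alone called 61 of 100 genes set 2-fold apart and 97 of 100 set 4-fold apart. It also called 9 of 16376 unchanged genes. With the set fitted these were 58, 94 and 6. The simulation held no difference between the library sets and took its dispersions from the fit with the set term. Its rates for the fit on age alone therefore cannot be carried over to these libraries. Every pair of libraries differed beyond sampling noise (lowest chi-square per gene 17.0, young 1 and 3). Figures used Python 3.11.15, pandas 2.3.3 and matplotlib 3.10.9.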

Additional observations from a re-analysis of the deposited data

Results flagged for a closer look

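Among 24 groups of values checked (10 genes and 2 ratios, each in young and in aged libraries), 4 held a library whose gap to the next exceeded Dixon's 95% critical value, where chance flags about 1 in 20 groups. Young 4 stood apart from the other 3 young libraries in Tfrc (1041 CPM), in Ftl1 (4055 CPM) and in the log2 ratio of Fth1 to Ftl1 counts (−0.93). Aged 3 stood apart from the other aged libraries in Hmox1 (459 CPM). All 4 values are from libraries of the set of 3.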

How the results depend on the processing

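The 6 genes Tfrc, Steap3, Slc11a2, Slc25a37, Slc40a1 and Hmox1 stayed lower in aged libraries under every alternative run, including the sets alone and young 1 to 3 against aged 5 (where they were −0.68, −0.61, −0.67, −0.77, −0.41 and −0.60, with no test). The group-only fit called 0 genes, with 769 lower and 688 higher at an unadjusted p under 0.05, and 0 with limma-voom, other scalings or no filter. It called 360 genes and 2 of the 10 with DESeq2, 319 and 2 with the set term, 5 and 0 with set and Y-linked terms, and 2 and 0 within the 6 libraries. Leaving out 1 library gave 0 to 6 genes without a set term and, when the set was fitted (added after the data were seen), 0 to 1633 genes (1633 without aged 3, 712 without aged 5, 2 without young 4, 1 without aged 2) and 0 to 6 of the 10 (6 without aged 3, 4 without aged 5). The 4 genes near 0 changed sign. Fth1 was 0.11 with library totals, 0.43 within the 6 libraries and −0.36 to 0.16 leaving out 1 library (−0.36 to 0.42 with the set term, 0.17 without aged 4 and 0.11 without aged 5). Ftl1 was 0.0039 with limma-voom, 0.054 with totals, 0.016 within the 6 libraries, and −0.23 to 0.41 leaving out 1 (−0.26 to 0.0081 with the set term). Aco1 was −0.048 with limma-voom, −0.58 within the 3 libraries, and −0.15 to 0.16 leaving out 1 (with the set term −0.081 to 0.31, −0.071 without young 1 and −0.00013 without young 3). Ireb2 was −0.058 within the 6 libraries and −0.066 to 0.09 leaving out 1 with the set term (−0.0027 without aged 4). The Tfrc to Fth1 log2 difference ran from −1.01 to −0.35 leaving out 1 library. That of Fth1 to Ftl1 ran from −0.44 to 0.15 (0.15 without aged 4) and was 0.30 within the 6 libraries. The cause was not tested. Deviations of same-numbered libraries correlated at 0.456, 0.554, −0.387 and 0.739. Those of differently numbered libraries ran from −0.64 (young 4 and aged 5) to 0.527 (young 1 and aged 5), with 0.52 for young 4 and aged 3 of the same set. Whether replicate numbers pair the libraries was not tested. With the replicate block, aged 5 left out, 13 genes and 0 of the 10 were called, Ftl1 was 0.15 and Aco1 −0.12.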
